A study of Homo sapiens with 4 samples.

Results

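The distal segment of chromosome 8q was the stretch of chromosome 8 from 100 Mb to the end of the long arm in hg38, 45.1 Mb in length. Its members were the accessible regions that start there, 8624 of the 149858 regions found on chromosomes 1 to 22 and X. A region was made by merging peaks of either list, Dox or No Dox, that overlapped or touched. The segment was chosen by its density of peaks in these same lists, so its density, its fold enrichment and its balance between the conditions are given as a description and were not tested.

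ATAC-seq maps open chromatin with a transposase, which inserts sequencing adapters into DNA that nucleosomes leave free. The cells were MCF10A, a non-transformed line of human mammary epithelial cells, and in both groups they carried TAZ-4SA, a constitutively active TAZ, under a tet-inducible promoter. Dox cells had received 0.05 µg/mL doxycycline for 72 h and No Dox cells had received none, with 50000 cells in each reaction and 2 biological replicates in each group. The authors pooled the replicates before calling peaks, so each value below is 1 value per condition, without a spread between replicates and without a p-value, and the read depth of each list is unknown.

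TAZ is a co-activator at the end of the Hippo pathway. It has no DNA-binding domain of its own and reaches DNA through the TEAD factors, often at enhancers that also carry AP-1, a dimer of FOS and JUN proteins. The distal arm of 8q carries MYC, which encodes a master regulator of cell growth, and a gene-rich end beside the telomere with many epithelial genes, while the stretches between them hold few and long genes. Gains of 8q are frequent in breast cancer and are known in MCF10A cells too. Copy number was not measured here, and copies of a stretch and accessibility per copy cannot be told apart in a peak list.

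The identity of the cells was checked on promoter peaks. KRT5, LAMB3, ITGB4 and CDH3, markers of basal mammary cells, and CDH1, KRT8 and KRT18, markers of epithelium, had promoter peaks in both lists. TP63 had one with Dox alone, and the basal keratin KRT14 had none in either list. PTPRC, CD3E and SPI1 of immune cells and PECAM1, CDH5 and VWF of endothelium had no promoter peak in either list, whereas CD14 and KDR had one in both. The luminal genes ESR1, GATA3 and FOXA1 had promoter peaks in both lists and PGR with No Dox alone, so open promoters did not mark out basal from luminal cells here.

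Regions were far denser in the segment than in the rest of the chromosome. The segment held 191 regions per Mb of sequenced bases, against 38.5 in the rest of chromosome 8 and 51.5 over chromosomes 1 to 22 and X together, the segment included. It thus held 5.75% of all regions on 1.55% of the sequenced bases, and its regions covered 15.0% of its length, against 2.31% of the rest of chromosome 8. Both lists showed this. With Dox there were 4723 peaks, or 105 per Mb, against 18.0 per Mb in the rest of the chromosome, a ratio of 5.81. With No Dox there were 7165 peaks, or 159 per Mb, against 32.4, a ratio of 4.90. Density was of the same order in the distal arms of chromosomes 1q, from 150 Mb, and 5q, from 140 Mb, with 216 and 203 regions per Mb.

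The excess over the rest of chromosome 8 was larger among weak peaks than among peaks of high fold. Fold enrichment, the height of a peak over the authors' background, took only whole steps in each list, of 0.226 with Dox and 0.212 with No Dox, and no peak lay under 12 steps. Peaks of at most 16 steps (a fold of 3.62 with Dox and 3.39 with No Dox) were 9.49 times as dense as in the rest of the chromosome with Dox and 5.12 times with No Dox. Peaks with a fold of at least 8 were 2.65 and 2.57 times as dense. The segment's own Dox peaks had a median fold of 3.84, against 4.75 in the rest of chromosome 8, and 47.7% of them lay at or below 16 steps, against 29.2%. With No Dox the median was 3.60 in both stretches and the shares were 45.0% and 43.0%. In that list the very weakest peaks did not stand out. Peaks of 12 or 13 steps were 8.95% of the segment's No Dox peaks, against 10.7% in the rest of the chromosome. Those of 17 to 20 steps were 29.4%, against 21.2%. Distal 1q and distal 5q had the same median folds as the segment, and 49.1% and 49.2% of their Dox peaks lay at or below 16 steps. The list with Dox thus differed more between the segment and the rest of the chromosome in its weak peaks than the list with No Dox.

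**Figure D1:**
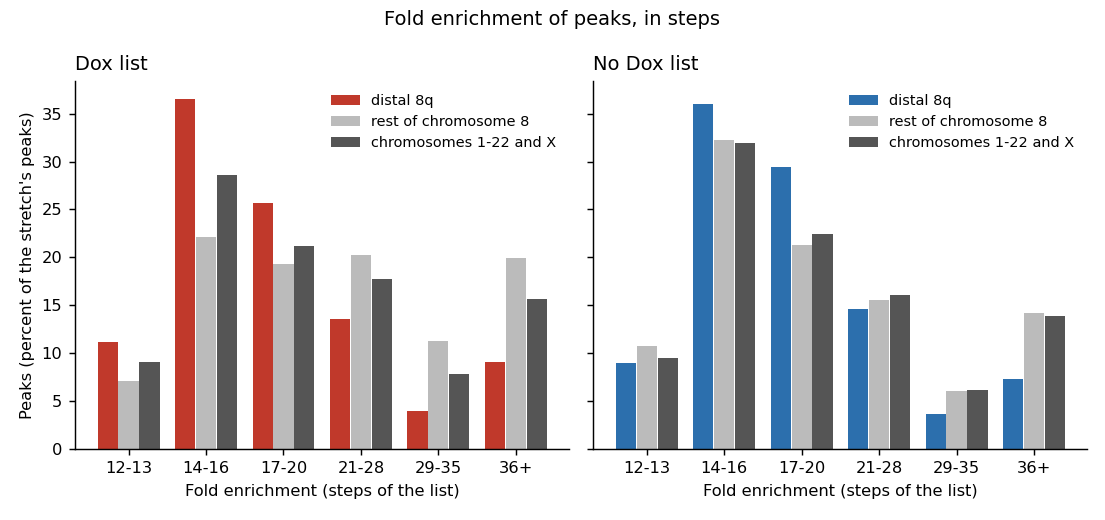
Share of peaks (percent, vertical) by fold enrichment in steps of each list (horizontal), for the Dox list at left and the No Dox list at right, in the segment (coloured), in the rest of chromosome 8 (light grey) and in chromosomes 1 to 22 and X (dark grey). In the Dox list 36.6% of the segment's peaks lay at 14 to 16 steps, against 22.1% in the rest of chromosome 8, and 9.10% against 20.0% at 36 steps or more.

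The change in density lay at the edge of the segment with Dox and somewhat inside it with No Dox. The 1 Mb windows of chromosome 8 were divided once, so that the log2 of the number of peaks varied least within each part. This division fell at 100 Mb in the Dox list and at 103 Mb in the No Dox list. From 100 to 103 Mb the No Dox windows held 38, 35 and 43 peaks, and the next held 109. The segment was chosen on this density, so the place of the division is a description only. The median window of the segment held 80 Dox peaks (35 to 369 over 45 windows), against 17.5 (0 to 60 over 100 windows) in the rest of the chromosome. For No Dox the medians were 120 (33 to 371) and 26.5 (0 to 119). The ranges overlapped in both lists, but 0 of the 100 windows outside reached the median of the segment. Regions were spaced accordingly, with a median gap of 1844 bp in the segment against 12231.5 bp outside it, and they were also wider, with a median of 547 bp against 443 bp. Distal 1q and distal 5q were like the segment, with median gaps of 1568 and 1995 bp and median widths of 557 and 509 bp. The longest stretch of the segment without a region was 163 kb, from 102240262 to 102403653.

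**Figure D2:**
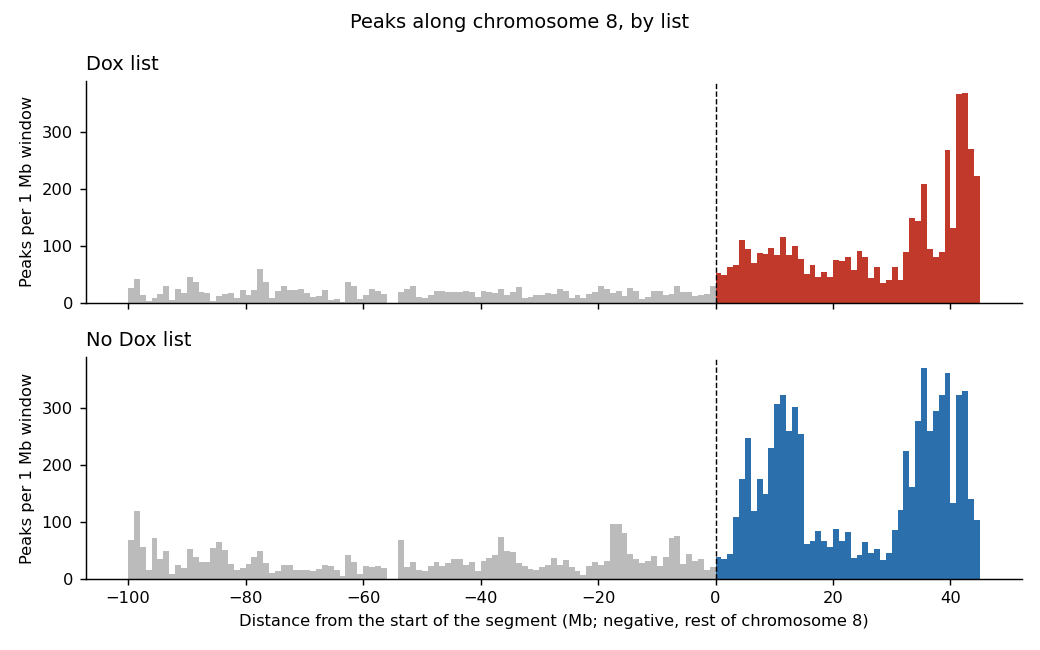
Peaks per 1 Mb window (vertical) along chromosome 8, by distance from the start of the segment in Mb (horizontal), with the Dox list above and the No Dox list below. Windows of the segment are coloured and those of the rest of the chromosome are grey. The Dox windows of the segment held 35 to 369 peaks, and the No Dox windows formed 2 broad elevations with a trough between them that Dox did not show to the same extent.

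The regions beside the threshold were few and near RGS22. The nearest members inside were a shared region in an intron of RGS22 from 100017753 to 100018576, with a fold of 11.1 with Dox and 13.1 with No Dox, and a No-Dox-only region from 100025148 to 100026148 with a fold of 5.51. The last regions outside it were Dox-only, from 99943222 to 99943692 with a fold of 3.39 and from 99998563 to 99998803 with a fold of 2.94. RGS22 itself, a regulator of G-protein signalling, had no promoter peak in either list.

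Regions made of peaks from 1 list are named here after that list, as Dox-only or as No-Dox-only, and those with peaks of both are shared. The No Dox list was the longer as a whole, with 117740 peaks against 84353, which by itself favours No-Dox-only regions. Of the members 1670 (19.4%) were Dox-only, a further 4231 (49.1%) were No-Dox-only and 2723 (31.6%) were shared. Over chromosomes 1 to 22 and X Dox-only calls took 22.3% of regions and the opposite calls 45.3%, so the segment lay near the background in both. Both kinds together are called condition-only, and they can include regions whose signal in the other list lay just short of its threshold. Dox-only regions made up 28.3% of the condition-only members (95% confidence interval 27.2 to 29.5, exact Clopper-Pearson, counting error only, as for all intervals here), against 23.1% (21.5 to 24.7) in the rest of chromosome 8, 28.4% in distal 5q, 39.2% in distal 1q and 33.0% over all chromosomes. With the longer list cut to the length of the other, this share was 47.3% in the segment and 40.1% in the rest of chromosome 8.

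The balance turned with the strength of the regions. Strong regions were those in which a peak reached its list's median fold, 4.07 with Dox and 3.81 with No Dox. Of the 3760 strong members 359 were Dox-only and 1168 No-Dox-only, a Dox-only share of 23.5% (21.4 to 25.7), and here the segment lay below the rest of chromosome 8, at 29.2% (26.2 to 32.4). These were 9.55% and 31.1% of the strong members, against 13.5% and 27.4% of strong regions over chromosomes 1 to 22 and X. At a fold of at least 8 the members numbered 609, of which 26 were Dox-only and 19 No-Dox-only (4.27% and 3.12%, against 4.13% and 3.99% of all such regions over chromosomes 1 to 22 and X), and the Dox-only share of 57.8% (42.2 to 72.3) overlapped the 44.4% (29.6 to 60.0) outside the segment. No order of the segment and the rest of chromosome 8 therefore held over the levels of strength.

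The pooled share also hid large differences along the segment. In windows of 5 Mb the Dox-only share was 41.1% from 100 Mb, 18.5% from 105 Mb and 7.85% (6.39 to 9.54) from 110 Mb. It was 36.9% from 115 Mb, 58.6% from 120 Mb and 53.2% from 125 Mb, the window of MYC. It was 22.95% from 130 Mb, 11.7% (9.93 to 13.6) from 135 Mb and 72.3% (69.0 to 75.5) from 140 Mb. By these windows No-Dox-only regions thus prevailed in 2 stretches, and Dox-only regions prevailed from 120 to 130 Mb and again at the telomeric end. The first window was mixed. Its megabases from 100, 101 and 102 Mb held 27, 22 and 30 Dox-only regions, against 11, 9 and 12 No-Dox-only ones (9, 6 and 7 against 3, 5 and 7 among strong regions). Those from 103 and 104 Mb held 26 and 39, against 70 and 104. Among strong regions Dox-only led from 120 Mb, at 47 against 35 No-Dox-only. From 125 Mb strong regions went the other way, at 21 and 42. The intervals of the lowest and highest windows lay far apart.

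The windows with the most No-Dox-only regions were gene deserts. From 110 Mb, 93 regions were Dox-only, 347 were shared and 1091 were No-Dox-only beside 1 coding gene start, in the window of the lowest GC content (34.4%) of all 586 windows of 5 Mb. From 135 Mb, beside 4 coding gene starts, 144 regions were Dox-only, 489 were shared and 1090 were No-Dox-only, and 2 of the 586 windows held more regions per Mb. By megabase the share ran from 6.50% to 10.6% in the window from 110 Mb and from 7.07% to 20.8% in that from 135 Mb. Strong regions showed the same side, with 10 Dox-only and 342 No-Dox-only from 110 Mb and 22 and 287 from 135 Mb.

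The telomeric window was the opposite case. From 140 Mb, 557 regions were Dox-only, 674 were shared and 213 were No-Dox-only beside 105 coding gene starts, at a GC content of 52.6%. It held 272 Dox peaks per Mb, the highest of all 586 windows, and 206 No Dox peaks per Mb, the tenth highest. The Dox-only share reached 89.7% in the megabase from 143 Mb and 92.5% in that from 144 Mb, and strong regions numbered 142 Dox-only against 43 No-Dox-only in the whole window. A further stretch of Dox-only regions lay from 123 to 125 Mb, where the megabases held 30 and 57 regions of the Dox-only class, against 9 and 10 of the No-Dox-only class.

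GC content moved with this balance. Over the 9 full windows of 5 Mb the Dox-only share and GC content had a Pearson's r of 0.70 and a Spearman coefficient of 0.47, and over the 45 windows of 1 Mb 0.65 and 0.65. Over all 586 windows of the genome they were 0.71 and 0.64. The windows share both libraries and their neighbours' sequence, so these values describe the lists and carry no p-value. The part of GC content in the balance was not tested.

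**Figure D3:**
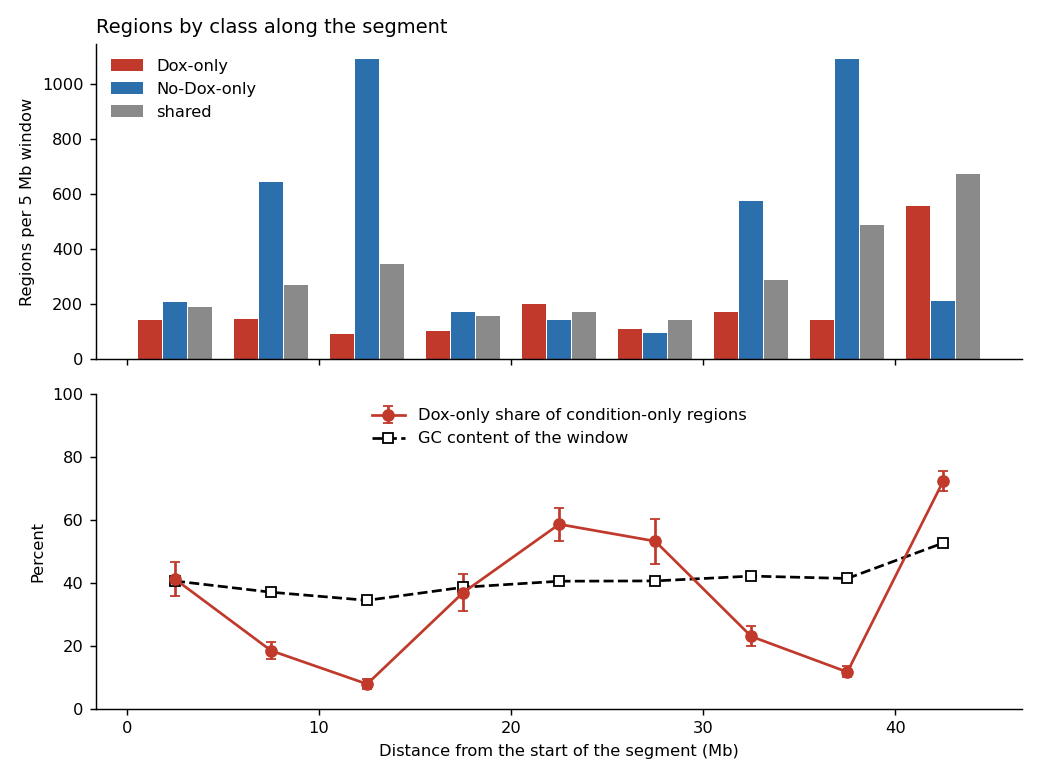
Above, regions of each class per 5 Mb window (vertical; red for Dox-only, blue for No-Dox-only, grey for shared) by distance from the start of the segment in Mb (horizontal). Below, the Dox-only share of condition-only regions with its 95% interval, and the GC content of the window, both in percent. The share ran from 7.85% to 72.3% while GC content ran from 34.4% to 52.6%, and the highest value of both lay in the last window.

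Shared regions followed the same course in their fold. The ratio of the Dox fold to the No Dox fold had a median of 0.955 over the 2723 shared members, against 0.928 in the rest of chromosome 8 and 0.949 over all chromosomes. Along the segment its median was lowest from 110 Mb, at 0.854, and highest from 140 Mb, at 1.07. A ratio at least 1.5 times above the median of all shared regions was found in 236 members (8.67%, against 11% of all shared regions) and one at least 1.5 times below it in 248 (9.11%, against 10.1%). Large differences in fold were thus no more frequent here than over all chromosomes, and the backgrounds of the lists differ, so the ratio is relative.

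The strongest members were promoters open in both conditions. The region at EBAG9, from 109538529 to 109541536, had a fold of 70.3 with Dox and 85.2 with No Dox. A region shared by the starts of NUDCD1 and ENY2, a subunit of the SAGA co-activator, had 56.5 and 68.0, and that of OXR1, an oxidation resistance gene, had 49.96 and 59.3. LRP12, a lipoprotein receptor family member, had 41.8 and 53.0, and the start shared by the translation factor gene EIF3E and EMC2 had 48.1 and 50.8. All 5 ranked high in both lists, with the higher fold in No Dox.

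The 5 Dox-only members of the highest fold lay 5.09 to 289.7 kb from the nearest start of a coding gene. The highest, from 117810531 to 117811996, had a fold of 23.5 and lay in an intron of EXT1, which encodes an enzyme of heparan sulfate synthesis. A pair of regions within ZFPM2, a cofactor of GATA factors, had folds of 17.9 (105651325 to 105652266) and 16.7 (105682854 to 105683716). Most other condition-only regions of this gene were No-Dox-only. An intron of SYBU held a region of fold 16.3 (109637376 to 109638341) with a TEAD sequence near its summit, and an intron of RIMS2, a gene of the synaptic release site, one of 15.4 (103574422 to 103575808). None of these 5 carried an AP-1 sequence near the summit.

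Further Dox-only members of high fold had EIF3H, HAS2 or OXR1 as the coding gene with the nearest start, mostly at a long distance. For 3 distal intergenic regions the nearest was EIF3H, 415, 304 and 241 kb away, beyond the 100 kb used below to give members to genes. They started at 116340216, 116451286 and 116514370, with folds of 11.5, 8.59 and 8.36, and the last 2 carried a TEAD sequence. On either side of HAS2, which encodes a hyaluronan synthase, regions of fold 8.59 started at 121251984 and 122110550, 389 and 469 kb from its start, the one at 121251984 with a TEAD sequence. A region that starts at 106139635, 130 kb upstream of OXR1, had a fold of 13.1, and one in an intron of OXR1 that starts at 106285446 had 14.5. These were picked out after their values were seen.

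The No-Dox-only member of the highest fold lay in PVT1, the long non-coding gene beside MYC. It ran from 128034791 to 128035613, 297 kb from the start of MYC, had a fold of 15.9 and carried an AP-1 sequence near its summit. Regions from 108638678 to 108639849 in an intron of TMEM74 and from 119291927 to 119292579 beyond MAL2 both had a fold of 11.0. Those from 106014753 to 106015305, in the antisense gene ZFPM2-AS1, and from 134136035 to 134137512, beyond ZFAT, both had 10.4. The neighbourhood of PVT1 also held Dox-only members of high fold, at 9.72 (128182877 to 128183613, within PVT1), 10.6 (128314289 to 128315098) and 9.27 (128324145 to 128325028). Regions of opposite class thus stood side by side there.

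TEAD sequences (ACATTCC or GCATTCC on either strand) within 100 bp of the summit were scarcer in Dox-only members than in Dox-only regions of the rest of chromosome 8. They were found in 8.38% of Dox-only members (7.10 to 9.82), against 20.5% (17.3 to 23.8) in the rest of chromosome 8 and 13.6% over all chromosomes. Among strong Dox-only regions the share was 17.8% (14.01 to 22.2), against 33.9% (28.03 to 40.1). The intervals did not overlap in either set. Distal 1q and distal 5q were like the segment, at 8.49% and 8.78% of Dox-only regions and 15.6% and 17.7% of strong ones. No-Dox-only members carried a TEAD sequence in 5.67% (4.99 to 6.41), against 5.81% (4.84 to 6.90) outside the segment, and shared members in 8.96%. The reversed TEAD sequence, a control, was found in 2.46% of the Dox-only members and, in the No-Dox-only class, in 1.96%.

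AP-1 sequences (TGACTCA or TGAGTCA) were also scarcer in each class of the segment than in the same class of the rest of chromosome 8. Of Dox-only members 4.19% carried one, of the No-Dox-only class 7.33% and of shared members 15.2%, against 11.3%, 14.3% and 22.2% in the rest of chromosome 8 and 8.12%, 11.7% and 18.4% over all chromosomes. In strong regions the shares were 6.13%, 11.6% and 16.97%, against 17.9%, 29.3% and 23.6%. Distal 1q, at 4.33%, 6.94% and 13.4% of all regions, and distal 5q, at 3.36%, 7.17% and 14.005%, lay near the segment. At a fold of at least 8 the shared class turned round, with an AP-1 sequence in 32.8% of members (28.9 to 36.8), against 22.3% (18.6 to 26.3) in the rest of chromosome 8. At this level the intervals of the segment and of the rest of chromosome 8 overlapped in the Dox-only and in the No-Dox-only class. Strength and base composition differed between the stretches in some classes. Strong Dox-only members had a median fold of 4.52 and a median GC content of 52.7% around the summit, against 4.97 and 44.3% in the rest of chromosome 8. In the No-Dox-only class the median fold was 3.39 in both stretches, with a median GC content of 42.8% against 45.3%. The part of strength and base composition in the shares was not tested.

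**Figure D4:**
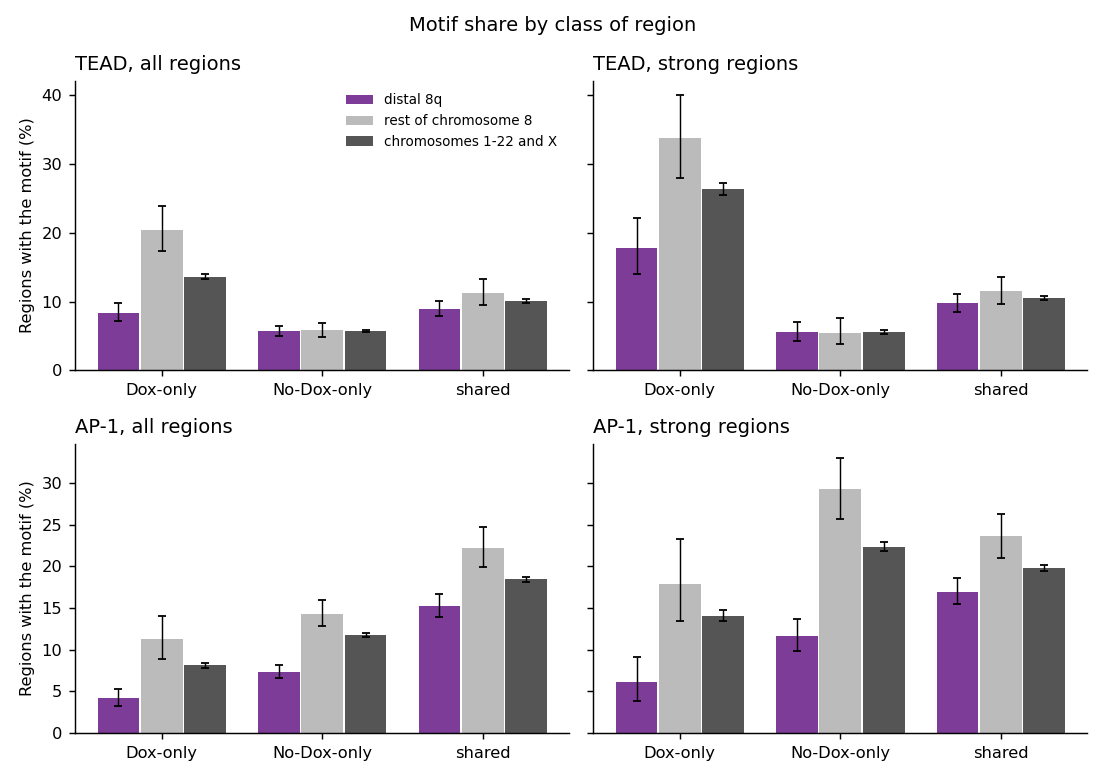
Share of regions with a TEAD (above) or AP-1 (below) sequence near the summit (percent, vertical) by class (horizontal), for all regions at left and strong regions at right. Bars stand for the segment (purple), the rest of chromosome 8 (light grey) and chromosomes 1 to 22 and X (dark grey), with 95% intervals. For Dox-only regions the TEAD share of the segment lay at 8.38% and 17.8%, below both other stretches drawn.

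Motif shares differed along the segment as well. In the window of MYC, from 125 Mb, 18.3% of 109 Dox-only members carried a TEAD sequence, against 2.08% of 96 No-Dox-only members, and the AP-1 shares were 11.9% and 24.0%. In the telomeric window from 140 Mb the TEAD shares were 5.03% of 557 and 4.69% of 213, at median GC contents of 61.7% and 56.7% around the summit. From 135 Mb the Dox-only share with TEAD, 4.17%, was below the No-Dox-only share of 5.96%. The window with the most Dox-only members was thus among those with the lowest share of TEAD sequences in that class.

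Taken as a whole, members lay farther from genes than regions of the rest of the chromosome. Promoters, within 3 kb of any transcription start site (TSS), took 16.7% of members (15.9 to 17.5), against 25.4% outside the segment and 27.3% over all chromosomes. In distal 1q and distal 5q promoters took 22.7% and 21.5% of regions. Of the members, introns took 42.5%, intergenic DNA 37.1% and exons or UTRs 3.73%. The classes differed, with promoters at 23.2% of Dox-only members, at 9.45% of the No-Dox-only class and at 23.8% of shared members. More than 100 kb from the start of any coding gene lay 53.7% of members. This held for 35.7% of those that were Dox-only and for 63.6% of those that were No-Dox-only. In the rest of chromosome 8 these shares were 46.3%, 39.1% and 58.2%, so Dox-only members were not farther from genes than those outside.

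Promoters of coding genes themselves were mostly open in both conditions. Of 221 coding genes that start in the segment, 196 (88.7%, 83.8 to 92.5) had peaks of both lists no farther than 1 kb from a TSS, against 63.6% (59.0 to 67.9) of 472 in the rest of chromosome 8. With Dox alone a promoter peak was found at 8 genes (3.62%, against 5.75% over all chromosomes), and with No Dox alone at 6 (2.71%, against 3.98%). A promoter peak in neither list was left for 11 genes, or 4.98%, against 30.5% outside. Outside the segment 0.847% of coding genes had a promoter peak with Dox alone and 5.08% with No Dox alone. In distal 1q and distal 5q both lists had peaks at 71.2% and 76.4% of coding promoters, and neither list at 14.7% and 11.2%. Promoters with a peak in both lists were thus more frequent in the segment. The segment was chosen for dense peaks, which makes a peak near any TSS likelier, so this share is a description only. Promoters open in 1 list were not more frequent than over all chromosomes.

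The 8 promoters with a Dox peak alone had folds of 2.94 to 5.65. MAPK15, an atypical MAP kinase, had 5.65, FOXH1, a SMAD partner in Nodal signalling, 5.43, and C8orf33 4.97. SLC39A4, a zinc importer, had 4.07, ZNF707 3.84, ABRA, an actin-binding protein of muscle, 3.16, LY6S 3.16 and CCDC166 2.94. All but ABRA lay beyond 143 Mb.

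The 6 promoters with a No Dox peak alone had folds of 2.97 to 3.81. GRHL2, a transcription factor of epithelial identity, had 2.97, as did ENPP2, which encodes the secreted enzyme autotaxin. CTHRC1, a secreted collagen triple helix protein, and TRHR, the receptor of thyrotropin-releasing hormone, had 3.18 each, and SLC30A8, a zinc transporter of pancreatic beta cells, had 3.81. The gene known only as ENSG00000258417 also had 3.81. With 12 steps, or 2.54, as the lowest fold of the No Dox list, GRHL2 and ENPP2 lay 2 steps above the floor. Around GRHL2 lay 3 members of the Dox-only class, 4 of the No-Dox-only class and 7 shared ones, and a Dox-only region of fold 8.14 lay 36.9 kb from its start.

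Where both lists held a promoter peak, the ratio of folds differed between the telomeric window and the rest of the segment. In the last window 66 of 95 genes had the higher fold with Dox, with a median ratio of 1.10 (quartiles 0.981 and 1.32), and in the first 40 Mb of the segment 33 of 101 had it, with a median of 0.885 (0.753 and 1.07). The quartile ranges overlapped. Counted by region, shared promoters had a median ratio of 0.930 over all chromosomes and 0.882 in the rest of chromosome 8. It was 0.957 in distal 1q and 0.882 in distal 5q. The first 40 Mb thus lay near these values and the last window above them. A ratio of 1 is no neutral point, since the backgrounds of the lists differ. PARP10, an ADP-ribosyltransferase, had 10.4 with Dox and 4.24 with No Dox, the neuronal adhesion receptor ADGRB1 7.01 and 3.39, and PLEC, which encodes the cytolinker plectin, 19.7 and 10.4. On the other side, TNFRSF11B, a decoy receptor of RANKL, had 6.10 and 11.4, and ANGPT1, a ligand of the endothelial receptor TIE2, had 6.78 and 12.1. MYC had 10.6 and 11.9, close to even.

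**Figure D5:**
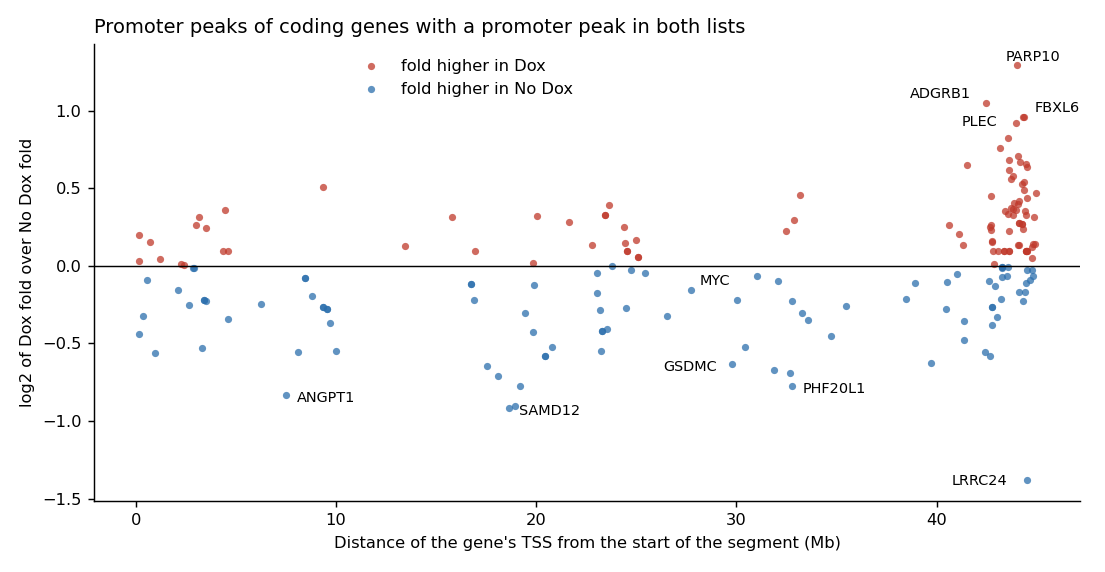
The log2 ratio of the Dox fold to the No Dox fold (vertical) at the promoters of the 196 coding genes with a promoter peak in both lists, by distance of the gene from the start of the segment in Mb (horizontal). Each point is a gene, red where the fold was higher with Dox and blue otherwise. In the last 5 Mb 66 of 95 points lay above 0, and in the first 40 Mb 33 of 101 did.

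Each member was given to the coding gene whose TSS was nearest, up to 100 kb away. This placed 1074 members of the Dox-only class, 1540 of the No-Dox-only class and 1382 shared ones. Dox-only members were the more numerous at 116 of the 221 genes, No-Dox-only members at 66, and the numbers were equal at 39. The median balance was thus 1 Dox-only region more per gene, although No-Dox-only members prevailed in the sum, since they gathered at few genes. The telomeric window, with a Dox-only share of 72.3%, held 105 coding gene starts, the most of any window of the segment. Its part in the median balance was not tested.

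The 6 genes with the largest excess of Dox-only over No-Dox-only members lay at 124 Mb or in the telomeric window. MTSS1 (124550784 to 124728473), an actin-binding protein that bends membranes, had 24 Dox-only and 3 No-Dox-only members, and SLC45A4, a solute carrier, had 23 and 2. PLEC (143915153 to 143976734) had 18 and 0, MAFA (143419182 to 143430732), a factor of the insulin gene in beta cells, 19 and 1, ZC3H3, a zinc finger protein of mRNA processing, 21 and 3, and DENND3, an exchange factor of a Rab GTPase, 20 and 3. Most were weak, with 2 strong Dox-only members at MTSS1 and 5 at PLEC. At MAFA 8 were strong.

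The 6 genes with the largest excess of No-Dox-only members were long and lay in the gene-poor stretches. ZFPM2 (104590733 to 105804539) had 8 Dox-only and 103 No-Dox-only members, COL22A1 (138588235 to 138914041), a collagen of tissue junctions, 7 and 100, and KCNQ3, a subunit of the neuronal M-current channel, 8 and 88. CSMD3 (112222928 to 113436939), a large membrane protein of the brain, had 8 and 80, the zinc finger gene ZFAT 16 and 76, and the RNA-binding protein gene KHDRBS3 10 and 70. Strong members showed the same side, with 0 and 27 at ZFPM2, 0 and 29 at COL22A1, 2 and 23 at KCNQ3 and 0 and 24 at CSMD3. ZFPM2 and CSMD3 span 1214 kb each, so length adds to these counts.

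The gene lists differed in their balance. The share for all coding genes of the segment, given with the first list, is the value to set beside each of them. Of the neighbourhood of MYC 12 of 13 genes were found in the annotation, with 48 Dox-only and 38 No-Dox-only members (55.8%, against 41.1% for all coding genes of the segment), with 10 and 21 among strong members (32.3%, against 37.7% for all coding genes of the segment, or 250 and 414). Of these genes 5 had more Dox-only members, 2 more No-Dox-only members and 5 equal numbers, with PVT1, CASC8 and WASHC5 at 0 and 0. ASAP1, an Arf GTPase-activating protein, had 14 and 15, MYC 8 and 4, TRIB1, a pseudokinase, 9 and 3 and LRATD2 2 and 6. The promoter of PVT1 had a fold of 24.2 with Dox and 23.5 with No Dox. As non-coding genes PVT1 and CASC8 could be assigned no members, so their equal numbers carry no information.

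Partners of TAZ and genes of the Hippo pathway had 58 members of the Dox-only class and 31 of the No-Dox-only class over 7 genes (11 and 9 among strong ones). The Dox-only share was 65.2%, against 41.1% for all coding genes of the segment, and 55.0% against 37.7% among strong members. All 7 promoters were open in both lists. PTK2, the focal adhesion kinase, had 18 and 5, YWHAZ, a 14-3-3 protein, 10 and 3 and the repressor TRPS1 9 and 10. PTK2 and SCRIB of this list lie in the telomeric window, where the Dox-only share was 72.3% in all. The part of position in the list's share was not tested. The matricellular genes CCN3 and CCN4 had 3 and 3, and 3 and 5. Their promoter folds were 14.9 with Dox and 18.4 with No Dox at CCN3, and 4.07 and 2.97 at CCN4, a difference in opposite directions.

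Epithelial structure and barrier genes had the highest Dox-only share of the 8 lists, at 76 members of that class and 21 of the No-Dox-only class (78.4%, 68.8 to 86.1), with 21 and 8 among strong ones. Of its 14 genes 10 had more Dox-only members and 2 more No-Dox-only ones. NDRG1, a stress-responsive gene, had 18 and 8, and the polarity gene SCRIB 7 and 1. Most of the list lies in the telomeric window, where the Dox-only share was 72.3% in all. These genes are PLEC, SCRIB, EPPK1, FAM83H, LY6D, LY6K, PSCA, SLURP1 and GSDMD. The list therefore cannot be told apart from its position.

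Genes common in 8q gains of breast cancer had 120 and 79 members (60.3%) over 21 genes and 26 and 25 among strong ones. All 21 promoters were open in both lists. EIF3E stood apart with 8 and 22. Genes that every cell uses had 49 and 43 (53.3%) over 20 genes, 18 and 10 among strong ones, with all promoters open in both lists. Besides EIF3E, EMC2 had 2 and 8, DERL1, of protein degradation in the endoplasmic reticulum, 5 and 3, and the Mediator subunit MED30 2 and 6. Both lists hold genes of the telomeric window, such as PUF60, and the part of position in their shares was not tested.

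Secreted and matrix genes had 82 members of the Dox-only class and 210 of the No-Dox-only class (28.1%) over 12 genes, of which COL22A1 alone took 100 No-Dox-only members. ANGPT1 had 10 and 34, COL14A1 15 and 21 and RSPO2, which amplifies WNT signals, 9 and 15. HAS2 went the other way, with 14 and 3. Genes of neurons, glands and other cell types had 151 and 505 (23.02%), 31 and 124 among strong ones, over 20 genes. Here Dox-only members were the more numerous at 8 genes and No-Dox-only members at 12, with KCNV1, a modulator of potassium channels, at 9 and 60 and FAM135B at 8 and 59. Of these 20 promoters 16 had a peak in both lists, beside 88.7% of all coding promoters of the segment. Most of the genes are not known for a role in mammary epithelium, but the segment was chosen for dense peaks, so this is a description only.

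Transcription and chromatin factors had 119 and 220 members (35.1%) over 20 genes, of which ZFPM2 and ZFAT took 103 and 76 of the No-Dox-only ones. With MAFA at 19 and 1 and the zinc finger and homeobox gene ZHX2 at 18 and 8, Dox-only members were the more numerous at 11 genes and No-Dox-only members at 8. The lists overlap in their genes, and MYC, SCRIB, NDRG1 and TRPS1 are counted in more than 1.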

How the data were processed

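For each condition 1 peak list was analysed. Read alignment by the authors used BWA and hg38, the 2 biological replicates of a condition were pooled, and MACS2 gave the peaks (FDR 0.05). The deposited fold enrichment of each peak is a ratio of the pooled signal to background at the summit, and the deposited −log10 of the q-value was used only to filter. Read counts were not given in the lists, and the depth of a sample is thus unknown.

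Peaks that overlapped by 1 bp or touched were merged. The 60 peaks outside chromosomes 1 to 22 and X were left out. Genes and TSSs came from GENCODE release 44, and motifs were sought in the hg38 sequence. Regions were named by a rule: the 5 of the highest fold per class and the neighbours of the threshold. Genes were named where they were among the 6 with the largest balance in each direction, or, from the lists, where the promoter had a peak in 1 list alone or where they were among the 4 with the most condition-only members. Other genes were named after their values were seen. Of 100 listed genes 99 were found. The result for 1 cell type marker is not reported here. The members, lists and tests were chosen with earlier results of these data known, and the fold ratio of 1.5 was set after the values were seen. Class and motif steps were tested on simulated data. Scripts ran in Python 3.11.15, on the packages pandas 2.3.3, numpy 2.4.6, matplotlib 3.10.9 and scipy 1.17.1.

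As alternatives, q-value limits of 0.01 and 1e-05, a shortened longer list, a restriction to strong regions or to folds from 8, merging across 200 bp, a required overlap of 50%, segments from 90 and 110 Mb, other promoter definitions, and motifs within 50 bp or in the whole region were tried.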

Additional observations from a re-analysis of the deposited data

How the results depend on the processing

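No paired analysis was possible because the authors pooled the replicates of each condition before peak calling, and no replicate could be left out for the same reason. Under 100 combinations of a result and an alternative, 54 values stayed within the main interval, 45 moved beyond it and 1 passed to the other side. That was the Dox-only share of condition-only members, 28.3%, which was 57.8% at folds from 8. It was 33.7% at a q-value of 1e-05, 47.3% with lists of equal length, 23.5% in strong regions, 26.9% with peaks within 200 bp merged and 30.0% with an overlap of 50%. It was higher than in the rest of chromosome 8 except at a q-value of 1e-05 (33.7% and 36.9%) and in strong regions.

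The density ratio to the rest of chromosome 8 stayed above 1 throughout. For Dox peaks, 5.81, it was 3.85 at a q-value of 1e-05 and in strong regions, 2.65 at folds from 8, 4.80 for a segment from 110 Mb and 4.95 from 90 Mb. For No Dox peaks, 4.90, it was 4.14, 4.49, 2.57, 4.01 and 4.30 in the same order.

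The TEAD share of Dox-only members stayed below that of the rest of chromosome 8 under each alternative. It was 16.6% at a q-value of 1e-05, 17.8% in strong regions, 34.6% at folds from 8, 4.61% within 50 bp and 14.7% in whole regions. At folds from 8 it rested on 26 members, and its interval (17.2 to 55.7) overlapped that outside (40.8 to 84.6). For No-Dox-only members the TEAD share was 10.5% at folds from 8, 2.95% within 50 bp and 13.5% in whole regions. The AP-1 share of Dox-only members was 6.56%, 6.13%, 7.69%, 2.40% and 8.74% under the alternatives listed first for TEAD. That of No-Dox-only members was 12.7%, 11.6%, 52.6%, 4.396% and 13.8% there and 9.66% with lists of equal length. It lay above the rest of chromosome 8 only at folds from 8 (52.6% and 44%).

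Depth is unknown, and with 1 list per condition no difference between Dox and No Dox has a spread between replicates to be set against. The cause of the shifts above was not tested.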
